A study of Caenorhabditis elegans with 8 samples.

Results

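The genes described here are the small sperm-specific gene families of Caenorhabditis elegans, taken as every protein-coding gene whose symbol starts with ssp-, ssq-, nspd-, nsph-, msd-, spch- or smz-. By this rule 43 of the 19983 protein-coding genes in the count tables were members: 12 ssp, 10 nspd, 8 nsph, 4 msd, 4 ssq, 3 spch and 2 smz genes. The rule used names and no measured values. RNA of dissected gonads from young adults had been sequenced, with the gonads of 9 to 12 animals pooled in each library. The groups were wild type (wt, replicates 3, 4 and 5), animals with the sin-3(syb2172) allele (replicates 3, 4 and 5) and animals with the hda-3(ok1991) allele (replicates 4 and 5), so that 8 libraries were analysed. HDA-3 belongs to the class I histone deacetylases, enzymes that act within repressor complexes assembled on scaffold proteins such as SIN-3. The labels give no exact age and no allele or agent shared by all 3 groups, and they do not say whether the spermatheca, where sperm are stored, was part of the dissected tissue. Because whole gonads were measured, fewer cells of a type and less RNA per cell cannot be told apart in any value below.

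In C. elegans hermaphrodites the germ line makes sperm during the last larval stage and then turns to making oocytes for the rest of adult life. Spermatocytes transcribe, before their meiotic divisions, large families of small and often nearly identical genes, and the mature sperm makes no new RNA. The spch genes encode small basic proteins of sperm chromatin. The msd genes encode proteins with a major sperm protein domain, the fold of the protein that drives crawling of nematode sperm, and SSP-19 of sperm-specific class P is known to take a related fold. SMZ-1 and SMZ-2 are PDZ-domain proteins known from spermatocyte meiosis. The ssq genes are sperm-specific class Q, and nspd and nsph are groups D and H of the nematode-specific peptide families, named for sequence and not for a known activity.

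Reads counted on genes ranged from 14550417 to 24389531 per library, of which ribosomal RNA took 41.8 to 79.0%. The sin-3 group held both ends of the 8 libraries. Its replicate 3 had the largest ribosomal share, 79.0%, the fewest other reads, 5110133, and the lowest normalisation factor, 0.424. Its replicate 5 had the smallest ribosomal share, 41.8%, the most other reads, 13268274, and the highest factor, 2.30. Counts of members called by edgeR at an adjusted p under 0.05 and pooled family ratios that use sin-3 replicate 3 are given with and without that library. The mutated genes did not go against the labels: sin-3 had 0, 2 and 1 reads in the sin-3 libraries and 606 to 1274 in wt, and hda-3 was at 13.9 and 18.7 CPM (read counts scaled by the normalised library size) in the hda-3 libraries and 28.1 to 39.1 CPM in wt. Markers of oocytes, at 7914 to 34587 CPM summed over 20 genes, and of germ cells, at 763 to 1401 CPM over 8 genes, were present in every library, as the label of a germ line calls for. Read counts below are in the order of replicates 3, 4 and 5 for wt and sin-3 and of replicates 4 and 5 for hda-3.

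The families were near the lower end of detection in wt gonads and high in hda-3 gonads. Summed over the 43 genes they had 680, 249 and 469 reads (wt), 132431 and 67143 (hda-3) and 126, 2419 and 4426 (sin-3). These were 57.5, 23.2 and 20.8 CPM (wt), 3425 and 2882 CPM (hda-3) and 12.2, 94.001 and 84.5 CPM (sin-3). As a share of all reads outside ribosomal RNA, the members were at 1.13 and 0.891% in hda-3, 0.00381 to 0.00856% in wt, and 0.00247 to 0.0334% in sin-3. Both hda-3 libraries lay far above the other 6, and the lowest of all was sin-3 replicate 3, with the other 2 sin-3 libraries above the 3 of wt. The number of members with no read was 2 in each hda-3 library, 8, 12 and 9 in wt, and 25, 5 and 4 in sin-3. The number with at least 10 reads was 38 and 37 (hda-3), 11, 7 and 11 (wt) and 2, 27 and 29 (sin-3).

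**Figure D1:**
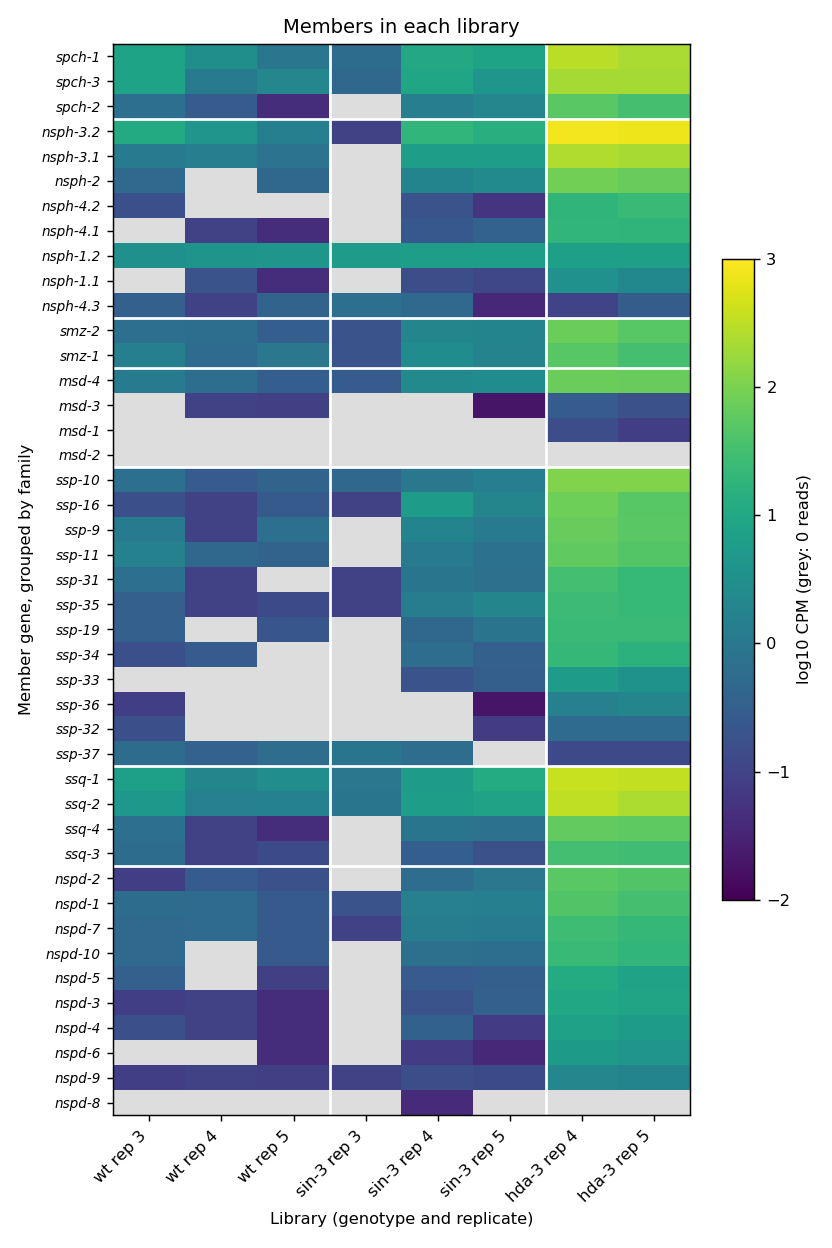
Level of each of the 43 members (rows, grouped by family) in each of the 8 libraries (columns), coloured by log10 CPM, with grey for 0 reads. The 2 hda-3 columns are the brightest in nearly every row, nsph-1.2 is at a like level in all 8, and ssp-37 and nsph-4.3 are not brighter in hda-3.

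The 3 genotype comparisons were made in 1 model of all genes. Of the 10302 genes that passed the filter on low counts, 39 were members. The other 4, msd-1, msd-2, msd-3 and nspd-8, had at most 11 reads in any library and were not tested. In a fit of the wt and sin-3 libraries without hda-3 just 12 members passed the same filter, so most members were tested because they were high in hda-3, and the counts below are given out of 43 as a description.

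In hda-3 against wt, 35 of the 43 members were called higher at an edgeR adjusted p under 0.05 and 0 lower, where 13.5% of all tested genes were called higher and 4.86% lower. Of the 12 members that passed the filter without the hda-3 libraries, 11 were among the 35, and nsph-1.2 was not. In 39 of all 43 members, tested or not, every hda-3 library lay above every wt library, the others being msd-2, nspd-8, nsph-4.3 and ssp-37. The share over all tested genes was 25.4%, but it cannot be set against the members' count, since most members passed the filter through their hda-3 reads. The count of calls was also 35 without sin-3 replicate 3 in the fit. Of the 35 calls, 32 were kept in each of the 8 fits that left out 1 library; the exceptions were spch-1, spch-3 and nsph-3.2.

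All 3 sperm chromatin genes were called higher, and spch-1 and spch-3 were among the 5 members highest per length in hda-3, while spch-2 was at 61.4 CPM per kilobase of exon. The gene spch-1 (WBGene00007307, chromosome IV, 10110818 to 10111541, on the WBcel235 assembly, as are all positions here) had 94, 33 and 21 reads (wt), 11534 and 5423 (hda-3) and 6, 272 and 419 (sin-3). Its level was 3.98 ± 3.59 CPM over the 3 wt libraries (mean ± SD, as in all values written so below), 266 ± 46.3 CPM over the 2 of hda-3 and 6.38 ± 5.19 CPM over the 3 of sin-3. The log2 fold change of spch-1 in hda-3 against wt was 6.11 (SE 1.10, edgeR adjusted p = 0.00664). Both hda-3 libraries were above every other library, while the wt libraries were spread from 0.930 CPM in replicate 5 to 7.94 CPM in replicate 3. The gene spch-3 (WBGene00020840) had 95, 13 and 47 reads (wt), 8288 and 4969 (hda-3) and 5, 219 and 223 (sin-3), and its log2 fold change was 5.85 (SE 1.02, edgeR adjusted p = 0.00563). The call of spch-1 was lost without hda-3 replicate 4 (5.93, edgeR adjusted p = 0.0888) and without hda-3 replicate 5 (6.28, adjusted p = 0.0551). That of spch-3 was likewise lost without hda-3 replicate 4 (5.86, edgeR adjusted p = 0.0769) and without hda-3 replicate 5 (5.85, adjusted p = 0.0561). The third copy, spch-2 (WBGene00015689), had 8, 3 and 1 reads (wt), 2052 and 792 (hda-3) and 0, 35 and 106 (sin-3). Its log2 fold change, 7.23 (SE 1.03, edgeR adjusted p = 0.00148), stayed past the threshold in each fit without 1 library. Within the family spch-2 was the minor copy in every group, with 3.81% of spch reads in wt, 10.97% in sin-3 and 8.603% in hda-3.

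Among the msd genes, which encode proteins with a major sperm protein domain, msd-4 was the one tested, and it was called higher. The gene msd-4 (WBGene00016447, chromosome III, 4868414 to 4868743) had 14, 7 and 7 reads (wt), 2876 and 1570 (hda-3) and 3, 61 and 143 (sin-3). It was at 0.715 ± 0.440 CPM (wt) and 70.9 ± 4.95 CPM (hda-3), and its log2 fold change was 6.73 (SE 0.68, edgeR adjusted p = 0.000135). Both hda-3 libraries of msd-4 lay above all others, while the wt and sin-3 libraries overlapped. Its relatives msd-1, msd-2 and msd-3, which lie 6405 and 6226 bases apart on chromosome IV, had few reads or none. The gene msd-3 had 15 reads in hda-3 and 3 in wt, a ratio of 3.64 (95% counting interval 1.03 to 19.6). For msd-1 there were 8 reads in hda-3 and 0 in wt, a ratio of 1.94 against a floor of 3 reads over the wt libraries. The lower end of its 95% counting interval was 1.24. There were 0 reads of msd-2 in all 8 libraries. The counter kept 3.03 to 5.57% of reads in a line of their own for reads that aligned to more than 1 place, so low counts of near-identical copies such as these, and of the ssp and nspd genes below, do not show that the copies are silent. The span of msd-2 also overlaps that of F44D12.16, and reads set aside as ambiguous between both genes would be missing from its count.

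Of the 12 ssp genes, 10 were called higher in hda-3 against wt. The highest by CPM was ssp-10 (WBGene00006039, chromosome IV, 9850702 to 9851031), with 8, 3 and 9 reads (wt), 4443 and 2646 (hda-3) and 5, 26 and 73 (sin-3). It was at 0.451 ± 0.203 CPM (wt), 114 ± 0.947 CPM (hda-3) and 0.963 ± 0.457 CPM (sin-3). The log2 fold change of ssp-10 was 7.98 (SE 0.38, edgeR adjusted p = 1.34e-06), with the smallest standard error of any called member. Its 3 wt libraries lay between 0.280 and 0.676 CPM and no sin-3 library exceeded 1.39 CPM. Next by level was ssp-16, with 2, 1 and 6 reads (wt), 3103 and 1196 (hda-3) and 1, 146 and 97 (sin-3). The neighbours ssp-9 and ssp-11 flank ssq-2 on chromosome IV. For ssp-9 there were 13, 1 and 15 reads (wt), 2630 and 1220 (hda-3) and 0, 47 and 60 (sin-3), and for ssp-11 19, 5 and 9 reads (wt), 2325 and 1075 (hda-3) and 0, 28 and 39 (sin-3). The log2 fold changes of ssp-16, ssp-9 and ssp-11 were 6.08 to 8.36, with edgeR adjusted p from 0.000276 to 0.00166, and no wt library reached the lower hda-3 library of any of them.

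Further ssp copies moved the same way at lower levels. In ssp-31 there were 8, 1 and 0 reads (wt), 1243 and 520 (hda-3) and 1, 23 and 37 (sin-3). Counts of ssp-35 were 4, 1 and 3 reads (wt), 1053 and 515 (hda-3) and 1, 34 and 102 (sin-3). For ssp-19, whose protein is the one with a known fold, there were 4, 0 and 5 reads (wt), 901 and 554 (hda-3) and 0, 12 and 43 (sin-3). These 3 genes had 8 or 9 reads over the wt libraries, against 1455 to 1763 over those of hda-3. The gene ssp-34 had 2, 3 and 0 reads (wt), 812 and 384 (hda-3) and 0, 16 and 18 (sin-3). For ssp-36 there were 1, 0 and 0 reads (wt), 59 and 46 (hda-3) and 0, 0 and 1 (sin-3). The log2 fold changes of these 5 genes were 5.96 to 7.25, with edgeR adjusted p from 9.48e-05 to 0.00127. With no read in wt, ssp-33 had 0, 0 and 0 reads (wt), 212 and 87 (hda-3) and 0, 5 and 17 (sin-3); it was at least 72.6-fold higher in hda-3 against a floor of 3 reads over the wt libraries (edgeR adjusted p = 0.000399).

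The other 2 ssp genes were not called in this comparison, and they differ from each other. For ssp-32 the counts were 2, 0 and 0 reads (wt), 22 and 13 (hda-3) and 0, 0 and 4 (sin-3), and the log2 fold change was 3.44 (SE 1.24, edgeR adjusted p = 0.0765). It was called in a fit of the hda-3 and wt libraries (edgeR adjusted p = 0.0135), with sin-3 replicate 5 left out (0.0231) and with wt replicate 3, the one wt library with reads of it, left out (0.0453). For ssp-37 (WBGene00012211, chromosome I, 12561040 to 12561560) they were 7, 4 and 14 reads (wt), 5 and 3 (hda-3) and 9, 16 and 0 (sin-3). The estimate for ssp-37 was negative, -2.01 (SE 1.29, edgeR adjusted p = 0.314), and it was the one tested member whose hda-3 libraries both lay below all wt libraries. The low counts of ssp-37 leave its ratio wide, 0.233 (95% counting interval 0.0909 to 0.533).

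The PDZ-domain genes of spermatocyte meiosis were both called higher. The gene smz-1 (WBGene00007733) had 17, 6 and 22 reads (wt), 1954 and 792 (hda-3) and 2, 71 and 91 (sin-3). The gene smz-2 (WBGene00020661, chromosome I, 6872607 to 6873757) had 8, 7 and 7 reads (wt), 2858 and 1164 (hda-3) and 2, 51 and 93 (sin-3). It was at 0.546 ± 0.205 CPM (wt), 61.9 ± 16.9 CPM (hda-3) and 1.32 ± 0.978 CPM (sin-3). For both genes the hda-3 libraries lay above all others. Their log2 fold changes were 5.40 (SE 0.65, edgeR adjusted p = 0.000222) and 6.91 (SE 0.61, edgeR adjusted p = 5.88e-05), in that order. The larger share passed from smz-1 to smz-2: smz-1 had 67.2% of smz reads in wt, on 67 reads, and 40.6% in hda-3, on 6768 reads, while the wt libraries ranged from 46.2 to 75.9%.

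All 4 ssq genes were called higher, and ssq-1 and ssq-2 carried most of the family in each group. The gene ssq-1 (WBGene00006050, chromosome IV, 9852550 to 9853609) had 78, 21 and 64 reads (wt), 15023 and 8082 (hda-3) and 10, 147 and 621 (sin-3). It was at 3.79 ± 2.46 CPM (wt), 368 ± 29.5 CPM (hda-3) and 6.18 ± 5.46 CPM (sin-3), and its log2 fold change was 6.61 (SE 0.91, edgeR adjusted p = 0.00169). The lower hda-3 library was at 347 CPM, and the highest of the others, sin-3 replicate 5, at 11.9 CPM. The gene ssq-2 had 55, 16 and 36 reads (wt), 12897 and 5618 (hda-3) and 9, 155 and 407 (sin-3). Reads of ssq-4 were fewer, 8, 1 and 1 reads (wt), 2460 and 1322 (hda-3) and 0, 23 and 39 (sin-3). For ssq-3 there were 7, 1 and 3 reads (wt), 1266 and 668 (hda-3) and 0, 8 and 9 (sin-3). The log2 fold changes of ssq-2, ssq-3 and ssq-4 were 6.83 to 7.98, with edgeR adjusted p from 4.44e-05 to 0.000960. Of the ssq reads, ssq-1 held 56.0% in wt, 54.5% in sin-3 and 48.8% in hda-3, and ssq-2 36.8, 40.0 and 39.1%. The span of ssq-4 overlaps that of T28H11.7, and the strand setting of the counting is not given in the sources used here, so reads of the 2 genes cannot be told apart.

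Of the 10 nspd genes, single-exon genes of 213 to 222 bases, 9 were called higher. The highest by mean CPM was nspd-2 (WBGene00010633, chromosome IV, 9844060 to 9844272), with 1, 3 and 4 reads (wt), 2023 and 1042 (hda-3) and 0, 16 and 51 (sin-3). It was at 0.180 ± 0.0977 CPM (wt), 48.5 ± 5.37 CPM (hda-3) and 0.532 ± 0.493 CPM (sin-3). Its log2 fold change was 8.05 (SE 0.67, edgeR adjusted p = 3.42e-05), the largest of the nspd genes, and its share of nspd reads was 10.7% in wt and 29.2% in hda-3. In wt the most reads, 19 over the 3 libraries, were on nspd-1, with 7, 6 and 6 reads (wt), 1713 and 772 (hda-3) and 2, 39 and 75 (sin-3). For nspd-7 there were 6, 6 and 6 reads (wt), 1086 and 503 (hda-3) and 1, 33 and 63 (sin-3). For nspd-10 the counts were 6, 0 and 6 reads (wt), 887 and 460 (hda-3) and 0, 18 and 33 (sin-3). These 3 genes had the next highest CPM of the family in hda-3, and none of their wt libraries reached 0.6 CPM.

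The remaining nspd copies followed at lower counts. In nspd-5 there were 4, 0 and 2 reads (wt), 451 and 180 (hda-3) and 0, 7 and 17 (sin-3). Counts of nspd-3 were 1, 1 and 1 reads (wt), 371 and 195 (hda-3) and 0, 5 and 18 (sin-3). For nspd-4 they were 2, 1 and 1 reads (wt), 277 and 128 (hda-3) and 0, 9 and 4 (sin-3). No wt library had more than 4 reads of any of these 3 genes. The gene nspd-6 had 0, 0 and 1 reads (wt), 203 and 96 (hda-3) and 0, 2 and 2 (sin-3). The weakest of those called, nspd-9, had 1, 1 and 2 reads (wt), 81 and 42 (hda-3) and 1, 4 and 7 (sin-3), and its log2 fold change was 4.38 (SE 0.67, edgeR adjusted p = 0.000567). The log2 fold changes of nspd-1, nspd-3, nspd-4, nspd-5, nspd-6, nspd-7 and nspd-10 were 5.88 to 7.46, with edgeR adjusted p from 4.44e-05 to 0.000285. The tenth copy, nspd-8, had 1 read, in sin-3 replicate 4. All 9 called nspd genes kept their call in each fit that left out 1 library.

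The nsph genes, longer and with 3 to 9 exon blocks, fell into 2 kinds. The gene nsph-3.2 (WBGene00007308, chromosome IV, 10112870 to 10114287) was the most abundant member in hda-3 by CPM and per length, at 593 CPM per kilobase of exon. It had 134, 43 and 33 reads (wt), 32220 and 17117 (hda-3) and 1, 498 and 707 (sin-3). Its log2 fold change was 7.16 (SE 1.45, edgeR adjusted p = 0.0119), with the largest standard error of any called member, and the call was lost without hda-3 replicate 4 (7.08, edgeR adjusted p = 0.112), hda-3 replicate 5 (7.25, adjusted p = 0.0773) or wt replicate 4 (6.97, adjusted p = 0.0531). The lower hda-3 library was at 735 CPM and the highest wt library at 11.3 CPM. Its relative nsph-3.1 had 13, 15 and 18 reads (wt), 9860 and 5157 (hda-3) and 0, 160 and 333 (sin-3). For nsph-2 there were 6, 0 and 11 reads (wt), 3341 and 1587 (hda-3) and 0, 47 and 121 (sin-3). The adjacent copies nsph-4.1 and nsph-4.2 on chromosome IV were close to absent outside hda-3. In nsph-4.1 there were 0, 1 and 1 reads (wt), 766 and 438 (hda-3) and 0, 6 and 20 (sin-3). For nsph-4.2 the counts were 2, 0 and 0 reads (wt), 731 and 542 (hda-3) and 0, 5 and 3 (sin-3). A smaller number of reads lay on nsph-1.1, 0, 2 and 1 reads (wt), 130 and 51 (hda-3) and 0, 4 and 6 (sin-3), whose span overlaps those of pah-1 and K08F8.15. The log2 fold changes of nsph-3.1, nsph-2, nsph-4.1, nsph-4.2 and nsph-1.1 were 5.24 to 8.70, with edgeR adjusted p from 3.42e-05 to 0.00176.

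The second kind were nsph-1.2 and nsph-4.3, which were not called. The gene nsph-1.2 (WBGene00011030, chromosome I, 12183688 to 12189008) had 39, 41 and 95 reads (wt), 254 and 161 (hda-3) and 60, 157 and 321 (sin-3). It was at 3.78 ± 0.457 CPM (wt), 6.74 ± 0.241 CPM (hda-3) and 6.01 ± 0.180 CPM (sin-3), and the fit put its log2 change from wt to hda-3 at 0.83 (SE 0.31, edgeR adjusted p = 0.0836). It was called in DESeq2, with other size factors, in a fit of the hda-3 and wt libraries and without sin-3 replicate 5. Its levels in the 8 libraries lay between 3.30 and 6.91 CPM, and it was the highest of all members in sin-3 replicate 3, with 60 of that library's 126 member reads. For nsph-4.3 there were 4, 1 and 9 reads (wt), 4 and 7 (hda-3) and 7, 13 and 2 (sin-3), and the log2 fold change was -0.57 (SE 1.12, edgeR adjusted p = 0.767), whose sign turned without hda-3 replicate 4 (0.073, adjusted p = 0.993). In wt nsph-1.2 made up 37.3% of nsph reads, and in hda-3 0.573%. Without nsph-1.2, nsph-4.3 and ssp-37, a choice made after their values were seen, the other 40 members had a pooled hda-3 to wt ratio of 123 (116 to 129.9), against 104 (98.7 to 109.7) for all 43. Without 1 library these ratios ranged over 87.02 to 193 and 78.2 to 149, both highest without wt replicate 3. With the same library left out, the ratio of the 40 was the higher each time, which follows from leaving out members with low ratios.

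**Figure D2:**
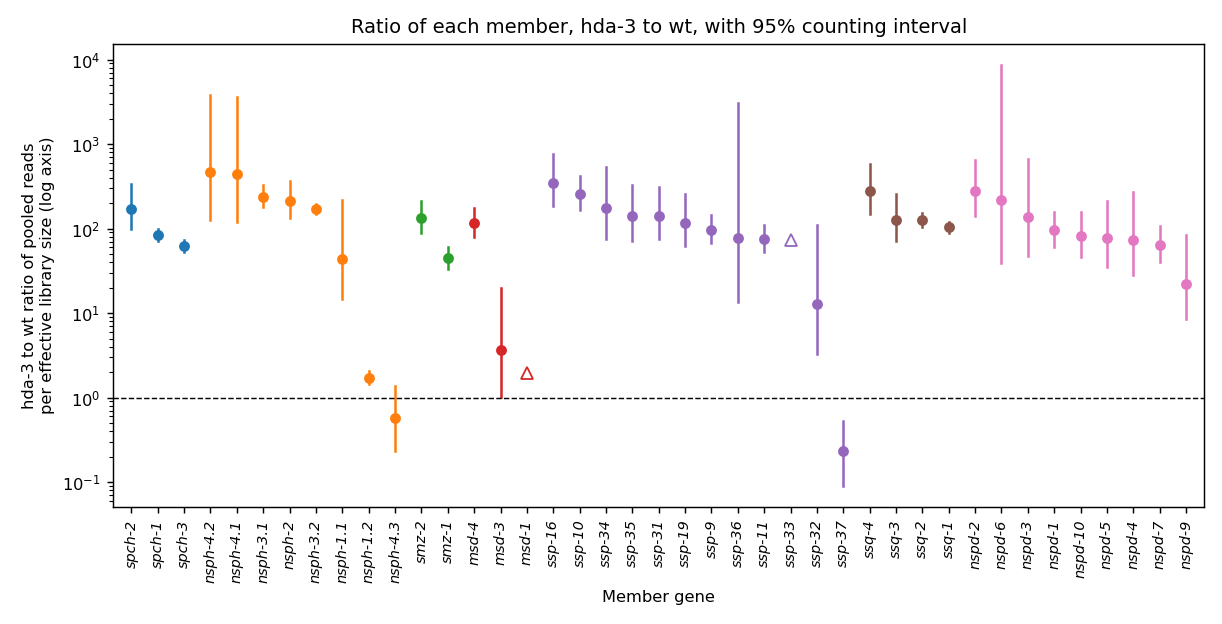
Ratio of pooled reads per effective library size in hda-3 to wt for each member with reads (log axis), coloured by family. Lines are 95% counting intervals, and the dashed line is at 1. Open triangles are ratios against a floor of 3 reads for members with no wt read, drawn without an interval. Most members lie between 43.96 (nsph-1.1) and 464 (nsph-4.2); nspd-9 at 22.4, ssp-32 at 12.8, msd-3 at 3.64, nsph-1.2 at 1.73, nsph-4.3 at 0.572 and ssp-37 at 0.233 lie below them.

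Set side by side, the 7 families were all higher in hda-3, by pooled ratios from 73.6 for smz to 122 for ssp. The pooled hda-3 to wt ratio, with its 95% counting interval, was 73.6 (57.9 to 95.1) for smz, 76.5 (68.4 to 85.7) for spch and 102 (81.4 to 129.9) for nspd. It was 105 (73.9 to 155) for msd, 112 (103 to 123) for nsph, 118.5 (106 to 133) for ssq and 122 (104 to 144) for ssp. Those intervals cover counting error only. The range without 1 library was 56.6 to 86.6 for smz, 48.9 to 151 for spch, 83.2 to 120.2 for nspd, 73.9 to 141 for msd, 87.5 to 144 for nsph, 92.1 to 178 for ssq and 103 to 168 for ssp. The spch ratio was 151 without wt replicate 3 and 48.9 without wt replicate 5, and the ssq ratio 178 without wt replicate 3. The range of smz lay below those of nsph, ssq and ssp, and the other pairs of ranges overlapped. No test of a difference between families was made. The factor depended on the scale: as shares of reads outside ribosomal RNA, without normalisation factors, the same ratios ran from 138 for smz to 229 for ssp, and 195 for all 43 members.

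**Figure D3:**
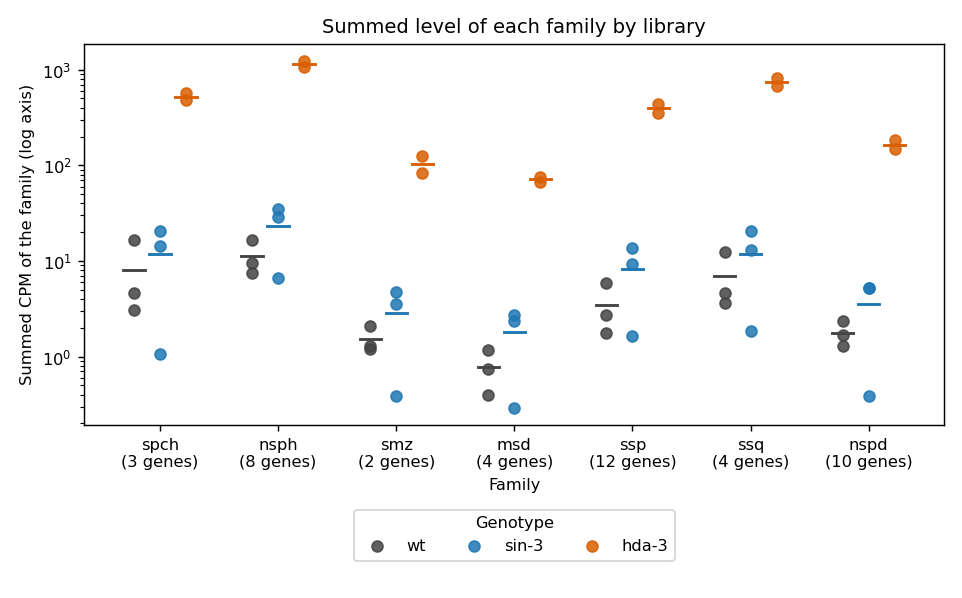
Summed CPM of each family (log axis) in each library, with points for libraries, coloured by genotype, and a short bar for the group mean. In every family both hda-3 points lie above all others and sin-3 replicate 3 is the lowest point.

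The families kept part of their order among the member reads, with nsph the largest in each of the 8 libraries when nsph-1.2 was counted in. In wt replicate 3 nsph had 198 reads, against 197 for spch. The nsph family held 29.1, 41.4 and 35.8% of member reads (wt), against 35.7 and 37.3% (hda-3). The ssq family held 21.8, 15.7 and 22.2% (wt), against 23.9 and 23.4% (hda-3). The hda-3 shares of nsph lay inside the wt range, and those of ssq just above it. With nsph-1.2 left out, a choice made after its values were seen, the nsph shares became 24.8, 29.8 and 19.5% (wt), against 35.6 and 37.2% (hda-3), so that both hda-3 libraries lay above the wt range. In that count spch was the largest family in wt replicate 3 and ssq in wt replicate 5 and sin-3 replicate 3. The spch share was uneven, at 28.97, 19.7 and 14.7% (wt), 16.5 and 16.7% (hda-3) and 8.73, 21.7 and 16.9% (sin-3). Of the others, nspd at 3.17 to 7.23%, smz at 2.91 to 6.18% and msd at 1.92 to 3.25% stayed small in each library. The ssp share was 7.63 to 14.6%. It was above that of ssq in sin-3 replicate 4, 14.6 against 13.8%, and above that of spch in sin-3 replicate 3, 13.5 against 8.73%. The 2 hda-3 libraries were closer to each other than the wt libraries, which rest on 249 to 680 member reads. In sin-3 replicate 3, with 126 member reads, nsph was at 53.97%, and 60 of its 68 nsph reads were on nsph-1.2.

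**Figure D4:**
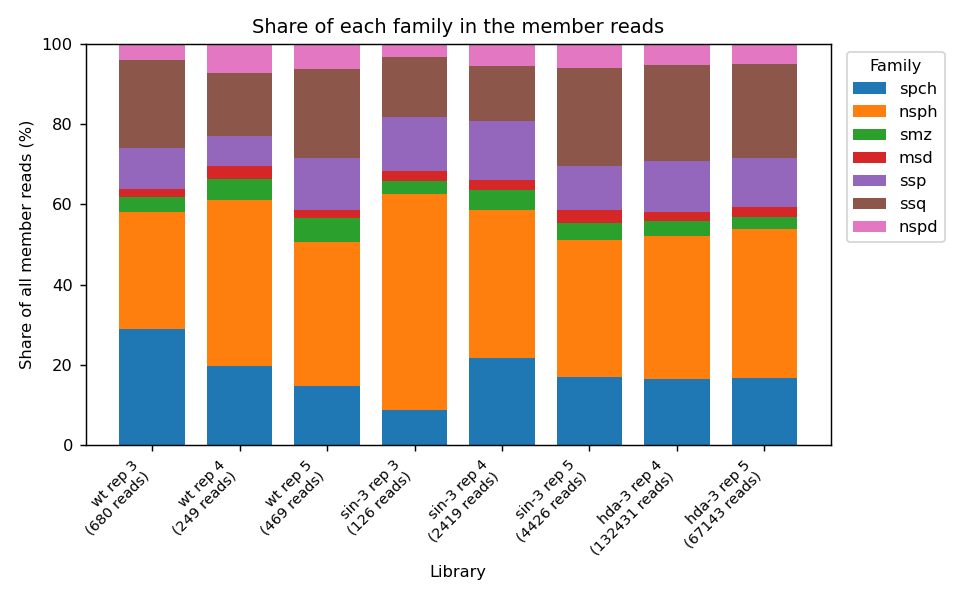
Share of each family in all member reads (percent, stacked to 100) for each library, with the number of member reads under each bar. The hda-3 bars are nearly alike, nsph, with nsph-1.2 included, is the largest segment in every bar, and sin-3 replicate 3 has the largest nsph segment at 53.97%.

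The order of the members among themselves was kept in part. Across the 43 members, Spearman's rho of mean CPM was 0.770 between wt and hda-3, 0.903 between wt and sin-3 and 0.854 between hda-3 and sin-3. Between libraries of a group it was 0.991 for hda-3, 0.726 to 0.789 for wt and 0.502 to 0.927 for sin-3. These are descriptions across genes that share libraries and sequence, and members with few reads tie or swap by counting error alone. Per kilobase of exon, the members highest in hda-3 were nsph-3.2 at 593, spch-1 at 393, ssq-1 at 382, ssp-10 at 346 and spch-3 at 284 CPM per kilobase. These 5 genes belong to 4 families. The gene models of 24 members hold no untranslated region, so for those the length is the coding length, and how this shifts their values per kilobase against the other members was not tested.

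In sin-3 against wt, 0 of the 43 members were called by edgeR, where 7.6% of all tested genes were called, 2.68% higher and 4.92% lower. Without adjustment 10 members were higher at a p under 0.05 and 0 lower, where 13.9% of all tested genes were higher by that rule. DESeq2 called 3 members higher, ssp-16, ssp-33 and ssp-35, where it called 5.92% of all genes it tested higher. The closest to a call was ssp-35, at 0.188 ± 0.131 CPM in wt and 1.12 ± 0.941 CPM in sin-3, where the log2 fold change was 2.76 (SE 0.77, edgeR adjusted p = 0.0509). The estimate for ssp-16 was larger, 3.75 (SE 1.14, edgeR adjusted p = 0.0892). In both genes sin-3 replicate 3 had a single read and the other 2 sin-3 libraries lay above every wt library. In 2 of the 39 tested members, nsph-1.2 and nspd-9, every sin-3 library lay above every wt library, where 14.7% of all tested genes did. In sin-3 replicate 3, 25 of the 43 members had no read. The shares over all tested genes in this comparison cannot be set against the members' counts, since most members passed the filter through their hda-3 reads.

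The count of calls in sin-3 against wt depended most on sin-3 replicate 3, and the summed ratio on wt replicates 3 and 5. Summed over the 43 members the sin-3 to wt ratio of pooled reads was 2.55 (2.403 to 2.698), with 1.91 to 3.66 when single libraries were left out, and 2.83 without sin-3 replicate 3. As shares of reads outside ribosomal RNA, without normalisation factors, it was 4.803, and the ratios by family ran from 3.93 for spch to 6.46 for msd. Without sin-3 replicate 3, 14 of the 43 members were called higher and 0 lower, where 6.78% of all tested genes were called higher. The 14 were ssp-10, ssp-16, ssp-33, ssp-35, ssq-2, nspd-1, nspd-2, nspd-7, nsph-2, nsph-3.1, nsph-4.1, spch-2, smz-2 and msd-4, so that each of the 7 families had at least 1. Only msd-4, nsph-2, nsph-3.1 and ssq-2 of the 14 passed the filter in the fit of the wt and sin-3 libraries without hda-3. The share over all tested genes therefore cannot be set against the count of 14. The log2 fold changes of the 14 in the fit without sin-3 replicate 3 ran from 1.44 for ssp-10 to 4.20 for ssp-16, leaving aside ssp-33, which had no wt read. In none of the other fits without 1 library was any member called. By family the ratios over all libraries were 2.08 for spch, 2.36 for smz, 2.505 for ssq, 2.69 for nsph, 2.78 for nspd, 2.93 for ssp and 3.42 for msd. Without sin-3 replicate 3 they were 2.34 for spch, 2.64 for smz, 2.80 for ssq, 2.96 for nsph, 3.11 for nspd, 3.25 for ssp and 3.82 for msd. The ratios that moved most without 1 library were those of 2 families: that of spch was 4.101 without wt replicate 3 and 1.33 without wt replicate 5, and that of ssq 3.76 without wt replicate 3 and, with sin-3 replicate 5 left out, 1.51.

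In hda-3 against sin-3, 36 of the 43 members were called higher and 0 lower, where 12.7% of all tested genes were called higher and 2.59% lower. The 36 were the 35 of hda-3 against wt and ssp-32 (3.67, edgeR adjusted p = 0.0459). Both comparisons share the hda-3 libraries. Without sin-3 replicate 3, 35 members were called higher. In 39 of all 43 members, with or without sin-3 replicate 3, the hda-3 libraries lay above every sin-3 library. Over all tested genes this share was 22.3%, and the same limit from the filter holds. By family the pooled ratio to all 3 sin-3 libraries was 30.7 (26.7 to 35.4) for msd, 31.2 (27.8 to 35.03) for smz, 36.7 (34.7 to 38.9) for spch and 36.8 (33.3 to 40.7) for nspd. It was 41.6 (38.8 to 44.5) for ssp, 41.8 (40.2 to 43.5) for nsph and 47.3 (44.9 to 49.9) for ssq. Without sin-3 replicate 3 the ratios were 27.5 for msd, 27.9 for smz, 32.7 for spch, 32.8 for nspd, 37.4 for ssp, 37.96 for nsph and 42.3 for ssq. Without sin-3 replicate 5 the ssq ratio was 78.3. The largest single estimate was that of nsph-4.2, 7.75 (SE 0.68, edgeR adjusted p = 7.14e-05), and the smallest of the called members that of ssp-32. The calls of spch-1, spch-3, nsph-3.1, nsph-3.2, ssp-16 and ssp-32 were lost in at least 1 fit without 1 library, with edgeR adjusted p up to 0.115, 0.0801, 0.0675, 0.149, 0.0646 and 0.212.

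The members share positions that the rule did not use. Of the 43 genes, 23 lie on chromosome IV and 12 on chromosome I, while these chromosomes hold 16.4 and 14.4% of protein-coding genes. Chromosomes II and III hold 3 members each and V holds 2. There is 0 on the X chromosome, which holds 13.7% of coding genes. Another member lay within 10 kb of 18 of the 43, often of a different family: nsph-3.2 lies 1329 bases from spch-1, nspd-1 lies 1136 bases from spch-3, ssp-10 lies 1519 bases from ssq-1, and ssq-2 lies 1442 bases from ssp-9. An msp gene lay within 10 kb of 4 members, ssp-32, ssp-36, nspd-2 and ssp-10. The nearest of these were msp-77, at 374 bases from ssp-32, and msp-79, at 421 bases from ssp-36. By structure, all 10 nspd, all 4 msd and 9 of the 12 ssp genes are a single exon block, and the 3 that are not, ssp-32, ssp-36 and ssp-37, had the lowest levels of the ssp family in hda-3. The spch genes have 2 exon blocks and the smz and ssq genes 3.

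Every tested msp gene and most, but not all, of the other tested sperm genes were called higher in hda-3 as well. Of 31 msp genes, which encode major sperm protein, 29 were tested and 29 were called higher in hda-3 against wt. Of 35 further sperm genes, 32 were tested, 21 were called higher, 0 lower and the rest not called. This list was chosen with earlier results of these data known. Over all tested genes 13.5% were called higher and 4.86% lower. These shares cannot be set against the counts, since sperm genes could pass the filter through their hda-3 reads. One that did was msp-74, with no read in wt or sin-3. The largest changes among the msp and further sperm genes were those of msp-32, msp-74, msp-38, cyc-2.2, msp-81, msp-51, htas-1 and gsp-4. In cyc-2.2, a cytochrome c gene, there were 1602 and 748 reads (hda-3) against 2, 1 and 2 (wt). In htas-1, a sperm histone H2A variant gene, there were 522 and 352 reads (hda-3) against 2, 0 and 1 (wt). In gsp-4, a sperm protein phosphatase gene, there were 4582 and 2050 reads (hda-3) against 14, 3 and 7 (wt). For the 5 msp genes the wt libraries had 0 to 12 reads and the hda-3 libraries 58 to 5979, with no wt read of msp-32 or msp-74. The ratio of member reads to msp reads was 0.953 and 0.954 (hda-3), 1.05, 0.940 and 1.22 (wt) and 3.82, 1.21 and 1.38 (sin-3). The value for sin-3 replicate 3 rests on 33 msp reads and falls to 1.52 without nsph-1.2, nsph-4.3 and ssp-37.

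Other marker lists differed between the genotypes beside the members. Calls of markers are for hda-3 against wt, where 13.5% of all tested genes were called higher and 4.86% lower. Markers low in wt could pass the filter through their hda-3 reads. The 8 markers of mature sperm and spermatocytes, all of them in the list of further sperm genes, were at 2.30 to 5.66 CPM summed in wt, 2.90 to 13.4 in sin-3 and 272 to 330.3 in hda-3, with 5 of 8 called higher in hda-3 and spe-9, a fertilisation gene of sperm, at 0.129 and 0.558 CPM there. The oocyte list was at 17210 to 34587 CPM in wt, 7914 to 29265 in sin-3 and 8846 to 9220 in hda-3, with 2 of 20 called lower in hda-3 against wt and no marker at 0. The germ line list was at 1077 to 1401 CPM in wt and 763 to 921 in hda-3, with 1 of 8 called lower. The somatic gonad list of 7 genes was at 26.6 to 95.4 CPM in wt, 53.0 to 77.4 in sin-3 and 14.0 to 16.8 in hda-3. Of its 6 tested genes 2 were called lower and 1 higher, and sth-1 was at 0 to 2 reads in each of the 8 libraries. The intestine list of 9 genes was at 5.09 to 38.1 CPM in wt, 26.8 to 86.2 in sin-3 and 144 to 230.1 in hda-3. Of its 8 tested genes 5 were called higher. The gene ges-1, a defining gut esterase gene, had 0 and 1 reads in hda-3 and 2 to 9 in the wt and sin-3 libraries. The muscle list was at 105 to 141 CPM in wt, 199 to 322 in sin-3 and, in hda-3, 277.5 in replicate 4 and 93.2 in replicate 5. The neuron list was at 34.1 to 45.6 CPM in wt, 25.2 to 32.9 in sin-3 and 25.97 to 31.6 in hda-3. The epidermis and cuticle list was at 3.32 to 37.2 CPM in wt, 25.8 to 46.7 in sin-3 and, in hda-3, 57.0 in replicate 4 and 12.0 in replicate 5. The muscle, neuron, and epidermis and cuticle lists had no marker called in hda-3 against wt among the 6, 5 and 1 tested. The part of any of these cells in the levels of the members was not tested.

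**Figure D5:**
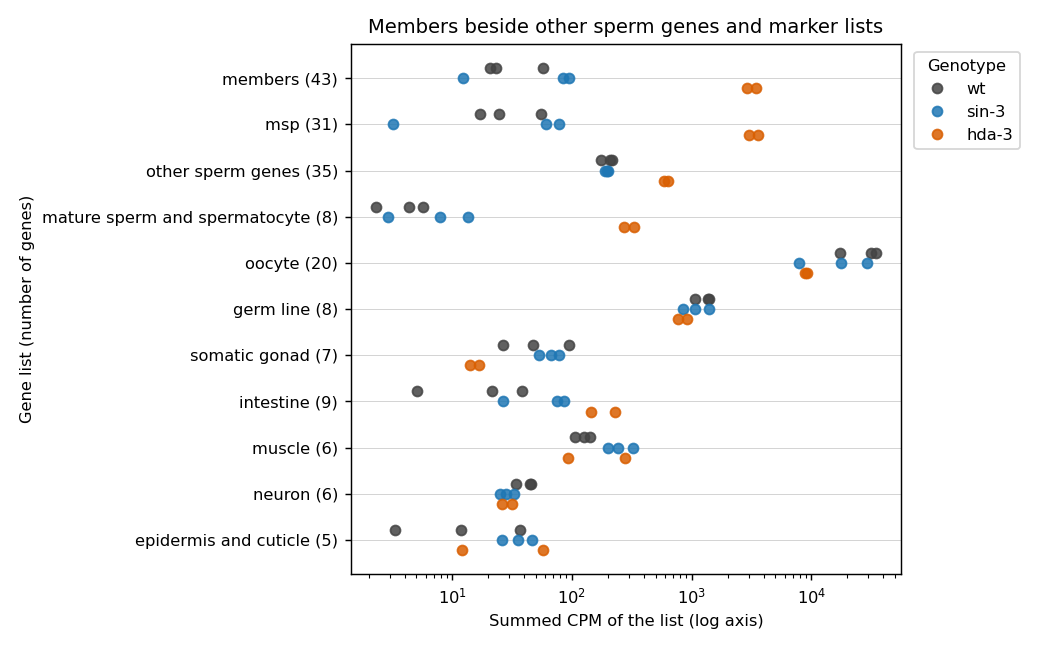
Summed CPM (log axis) of the 43 members, of the msp and further sperm genes and of 8 marker lists, with 1 point per library coloured by genotype. Members, msp genes and sperm markers lie to the right in both hda-3 libraries, as does the intestine list to a smaller extent, and the oocyte and somatic gonad lists do not.

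The authors' deposited table for hda-3 against wt listed 40 of the members, 39 of them with an adjusted p. Of those 35 were under 0.05 in the authors' deposited table, all higher, where 17.5% of the genes given an adjusted p were, in either direction. In the authors' deposited table the log2 fold changes of members ran from -1.78 for ssp-37 to 10.97 for nsph-4.2. In the authors' deposited table for sin-3 against wt, 36 members were listed, 25 of them with an adjusted p. Of those 1, ssp-16, was under 0.05 in the authors' deposited table (adjusted p = 0.00810), with a log2 fold change of 3.31, where 12.7% of the genes given an adjusted p were, in either direction.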

How the data were processed

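Per the labels' protocols, cDNA of gonad RNA came from a Smart-seq2 procedure and was sequenced as single reads of 50 bases. The authors deposited whole-number read counts per gene, not normalised, 1 table per library. Tools named in the submitters' processing notes are STAR 2.7.3a, fastp 0.20.1, DESeq2 1.36.0 and HTSeq 0.7.2; no source used here gives the build, annotation or strand setting. The authors' deposited comparison tables hold a mean count (signal), a log2 fold change, a test score and p-values, per the file headers, and were used to compare calls. Counter lines that name no gene were kept out; reads on no feature were 1.06 to 2.27%, ambiguous reads 0.673 to 1.55% and reads placed more than once 3.03 to 5.57% of a library. Symbols came from the name table, and 2 symbols carried by 2 identifiers each were settled by the RefSeq symbol at the same position (ssp-11, msd-3). The members and lists were chosen with earlier results of these data known.

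Counts of all 8 libraries entered 1 edgeR 4.0.16 quasi-likelihood model in R 4.3.3 (TMM, robust, filterByExpr with minimum count 10 and total 15), tested on simulated data, with Benjamini-Hochberg adjustment over 10302 genes and a call at 0.05. CPM uses TMM-scaled sizes, 10335767 to 52371470 per library. Pooled ratios have exact (Clopper-Pearson) 95% intervals. These cover counting error only, because the reads of a group were pooled and the spread between its libraries does not enter. Reads carry no molecular identifiers, so reads copied from the same molecule were counted separately and the intervals may be too narrow. Floors are 3 reads over a group. Replicates are independent, per the labels. No p was computed for a family or the list. Named were members called in any comparison, the highest of each family and up to 8 other sperm genes by fold change. Alternatives were RLE factors, ribosomal RNA left out, no filter, DESeq2 1.42.0, only the groups compared, a replicate block and leaving out each library.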

Additional observations from a re-analysis of the deposited data

Results flagged for a closer look

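Reads also lay on a pseudogene that the rule leaves out because it is not protein-coding. The nspd-11 pseudogene (WBGene00044997, chromosome I, 14993824 to 14993959) had 19 reads in hda-3 replicate 4 and 7 in hda-3 replicate 5, and 0 in each of the 3 wt and 3 sin-3 libraries. It was singled out because this signal is outside the comparisons and above the level of the wt libraries. No value of a member was tested for a stray library, since no group has more than 3.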

How the results depend on the processing

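The count of members called higher stayed within 29 to 37 in hda-3 against wt and 30 to 36 in hda-3 against sin-3 over 14 alternatives each. It was 32 to 37 and 30 to 36 when single libraries were left out, with 1 member, ssp-37, called lower in hda-3 against sin-3 without sin-3 replicate 5. In sin-3 against wt the count of 0 became 7 with no filter on low counts, 3 with DESeq2 and 1 with the replicate block, and ranged from 0 to 14 when single libraries were left out; the cause was not tested. The log2 fold change of nsph-4.3 in hda-3 against wt ranged from -1.43 to 0.073 without single libraries. In sin-3 against wt 9 of 39 estimates, none of them called, turned sign in such fits: ssq-1 ranged from -0.013 to 1.402, spch-3 from -0.45 to 1.43, nspd-4 from -0.56 to 1.29, ssp-11 from -0.57 to 0.73, ssq-3 from -0.88 to 0.65 and ssp-32 from -3.02 to 3.22, and the others were nsph-4.3, ssp-36 and ssp-37. Same-numbered libraries did not all deviate together (correlations from -0.20 to 0.29), so the numbers were not taken to pair them; the replicate block gave 29 members in hda-3 against wt, where spch-1, spch-2, spch-3, nsph-3.2, ssq-1 and ssq-2 were not called (adjusted p from 0.0534 to 0.185), and 30 in hda-3 against sin-3. The restriction to copies with unique sequence was not run, for want of a genome sequence. Depth limits members with few wt reads: 36 of 43 were under 1 CPM in wt.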

Other observations

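The nearest protein-coding neighbour on each side of each member, leaving out members, msp genes and the listed sperm genes, gave 73 genes. Of these, 40 passed the filter on low counts and 22 were called higher in hda-3 against wt and 0 lower, where 13.5% of all tested genes were called higher. In hda-3 against sin-3, 21 were called higher and 0 lower, where 12.7% of all tested genes were called higher and 2.59% lower. In sin-3 against wt, 3 were called higher and 1 lower, where the shares over all tested genes were 2.68 and 4.92%. The filter used the reads of all libraries, and whether neighbours passed it through their hda-3 reads was not tested. The shares over all tested genes are therefore a description and cannot be set against the neighbours' counts. The functions of these neighbours were not examined.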
